A study of Komagataella phaffii with 13 samples.

Results

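The late hours of methanol induction, M_96, M_108 and M_120, were compared with the settled early hours, M_24, M_36 and M_48, in a phytase fermentation of the methylotrophic yeast Komagataella phaffii (Pichia pastoris). These are 6 of the 13 RNA sequencing libraries of the series, grouped by their hour of methanol feeding, with 3 libraries a side. The comparison was chosen with earlier results of these data known. M_12 was left out as the first hours on methanol, and the middle libraries M_60, M_72 and M_84 were used only to see when a difference appeared. The host was GS115, which uses methanol at the full rate and carries the phytase gene of Aspergillus niger behind the promoter of AOX1, so all 6 libraries share the transgene, the strain and methanol as feed. The strain label rises in number from one methanol sample to the next and the extraction text names an animal organ; the samples were taken as 1 strain, as the paper describes them. The libraries were drawn serially from a single culture, as the methods describe. Those of a group are therefore time points, not separate fermentations, and every p-value measures the spread between time points of this culture. Time on methanol and any other condition that changed along the run cannot be told apart here.

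Methanol is oxidised by alcohol oxidase inside peroxisomes, which yields formaldehyde and hydrogen peroxide. Formaldehyde is either oxidised to carbon dioxide with formate dehydrogenase as the last enzyme, or joined to a sugar phosphate to build biomass. Peroxisomes of yeasts also hold the beta-oxidation of fatty acids, in which activated acyl chains are shortened step by step and the acyl-CoA oxidase likewise produces hydrogen peroxide. AOX1 served as a check of the methanol label: it lay between 19738 and 33180 FPKM in the 6 libraries, against 11.3 FPKM in B_10, grown before any methanol, and 38.2 FPKM in G_3 on glycerol.

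Values were FPKM (fragment counts scaled to gene length and library size), analysed as log2(FPKM + 1), and every difference below is the late minus the early mean on that scale. Low values times gene length came in whole multiples of 1 fragment, which put the 6 libraries at 23598226 fragments (M_96) to 32066014 fragments (M_24). The median-of-ratios factor of the deposited values was 1.00 in each of the 10 methanol libraries, so a difference is relative to the typical gene. The sum of all FPKM lay between 965090 and 1000056 in the early libraries, at 1037698 and 1040859 in M_96 and M_108, and at 1136812 in M_120. In bulk RNA, a change of the level in each cell and a change in the share of cells that use a gene cannot be told apart.

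Most differences between late and early induction were small, and changes of 2-fold or more were few in both directions. Of the 5100 genes tested, 192 (3.76%) were called higher and 140 (2.75%) lower by limma at a Benjamini-Hochberg adjusted p of at most 0.05. The median difference of all genes was 0.0023, and the 5th and 95th percentiles were −0.40 and 0.42. The median called gene was 1.42-fold higher or 1.47-fold lower, and 14 of the higher and 10 of the lower genes changed 2-fold or more. Without a test, 971 genes (19.0%) had all late libraries above all early ones and 863 (16.9%) had them all below, and every called gene was among these. At an unadjusted p under 0.05 limma had 773 genes higher (15.2%) and 653 lower (12.8%), the shares against which the unadjusted counts of the lists below are to be read. An exact permutation test of 3 libraries against 3 cannot give a p below 0.10, so single genes rest on the fit over all genes. The balance of calls depended on the scaling. With every library set to the same total FPKM, the median difference of all genes became −0.12 and the calls 110 higher and 368 lower. With the 20 largest genes left out of that total, the calls were 126 and 209. Equal totals multiply all genes of a library by a common factor. List medians at equal totals below are therefore to be read against −0.12.

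**Figure D1:**
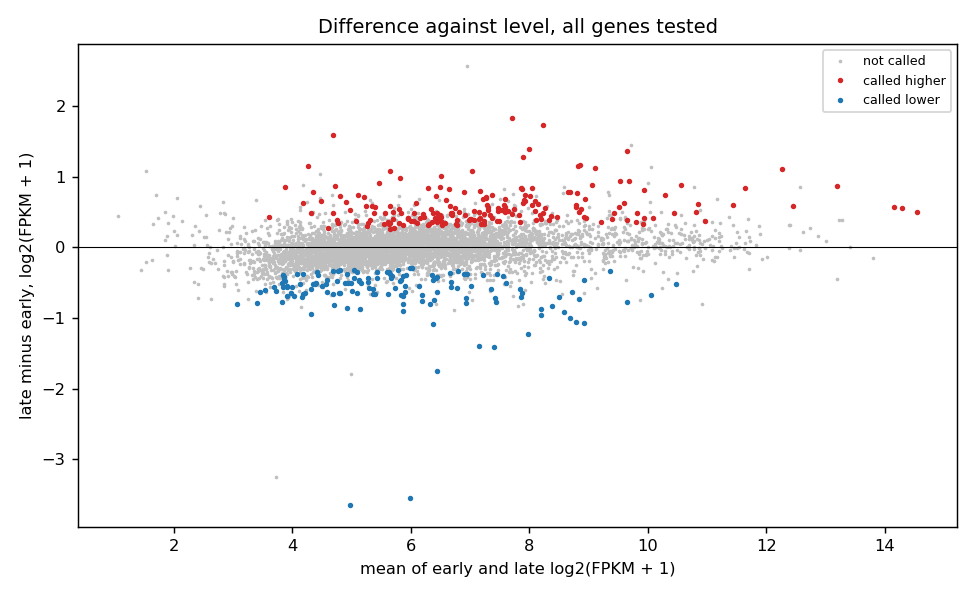
Late minus early difference against the mean level of each of the 5100 genes tested, both in log2(FPKM + 1); red points are the 192 genes called higher and blue points the 140 called lower. The called points above 0 reach up to the largest levels, and the lowest blue points lie below −3.5.

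The clearest change in a named pathway was the fall of fatty acid beta-oxidation, in which limma called 6 of 8 genes lower and 0 higher (7 and 1 at an unadjusted p under 0.05), with a list median of −0.81. The study chose its lists on these same samples, so the count is not independent evidence. ACSL2 (PAS_chr4_0352, FAA2), a synthetase that activates fatty acids as CoA esters, had 133, 176 and 170 FPKM in M_24, M_36 and M_48 and 47.7, 47.5 and 43.8 FPKM in M_96, M_108 and M_120. The late values lay in a narrow band far below the lowest early one. Its difference was −1.75 (standard error 0.11), a 3.37-fold fall with an adjusted p of 0.00054, the lowest of any named gene. ACOX (PAS_chr1-4_0538, POX1), the acyl-CoA oxidase of the first step, had 292, 443 and 436 FPKM early and 171, 158 and 159 FPKM late. It fell 2.35-fold, with a difference of −1.23 (standard error 0.16) and an adjusted p of 0.0094. FOX2 (PAS_chr2-1_0776), the multifunctional enzyme of the next steps, had 318, 454 and 480 FPKM early and 225, 220 and 188 FPKM late, a difference of −0.96 (adjusted p = 0.020). ACAA1 (PAS_chr2-2_0267, POT1), the thiolase that cuts off each pair of carbons, had 468, 713 and 766 FPKM early and 316, 308 and 289 FPKM late, a difference of −1.06 (adjusted p = 0.020). For all of these enzymes the early group held the wider spread, with M_24 well under M_36 and M_48, while the late libraries were close together.

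Transport of activated fatty acids into the peroxisome was represented by ABCD2 (PAS_chr2-2_0272, PXA2), a transporter subunit, which went from 37.7, 51.5 and 52.6 FPKM to 30.5, 28.7 and 34.5 FPKM, a difference of −0.57 (adjusted p = 0.046). The groups did not overlap, but the lowest early and highest late values were only 37.7 and 34.5 FPKM. PDCR (PAS_chr3_0975), the 2,4-dienoyl-CoA reductase needed for unsaturated chains, had 430, 542 and 504 FPKM early and 388, 364 and 370 FPKM late and missed the threshold, at −0.39 (adjusted p = 0.059). ACSL1 (PAS_chr2-1_0785, FAA1), the other acyl-CoA synthetase, had 1244 to 1344 FPKM early and 1491 to 1740 FPKM late, a difference of +0.28 that was not called (adjusted p = 0.098). The ratio of ACSL1 to ACSL2 was 7.65 to 9.35 in the early libraries and 31.3 to 39.7 in the late ones.

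How many of these genes were called depended on the libraries. With M_24 left out, 7 of the 8 beta-oxidation genes were called, and with M_36, M_48, M_96, M_108 or M_120 left out, 2, 4, 2, 4 and 2. ACSL2 and ACOX passed in each of these 6 fits. ACAA1, FOX2 and ABCD2 did not, and their largest adjusted p-values were 0.076, 0.076 and 0.15. Adding M_12 to the early group left ACSL2 as the only call. M_12 lay below every early library for ACSL2 (109 FPKM), ACOX (212 FPKM), ACAA1 (441 FPKM), FOX2 (298 FPKM) and ABCD2 (32.6 FPKM). The value of ABCD2 was within its late range, and PDCR (459 FPKM) was within its early range. For most of these genes the early level was thus above that at 12 h, and the fall was partly a return towards it. The list median stayed between −0.98 and −0.65 in all alternatives.

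Of the other named genes that fell, GUT1 (PAS_chr4_0783), the glycerol kinase, had 115, 113 and 96.7 FPKM early and 66.0, 68.0 and 58.7 FPKM late. Every late value was far below every early one, and the difference was −0.74 (standard error 0.09, adjusted p = 0.0094), with an adjusted p of at most 0.048 whichever library was left out. Adding M_12, which at 58.3 FPKM was as low as the late libraries, raised it to 0.24. LRO1 (PAS_chr2-1_0878), which in Saccharomyces cerevisiae makes storage triacylglycerol, was almost constant early at 33.6, 33.8 and 34.9 FPKM and had 24.8, 26.4 and 20.7 FPKM late, a difference of −0.50 (adjusted p = 0.028). LCB1/2 (PAS_chr3_0733), a component of the serine palmitoyltransferase that starts sphingolipid synthesis, went from 54.3 to 57.3 FPKM down to 41.4 to 45.5 FPKM, a difference of −0.35 (adjusted p = 0.028). DGA1, the other triacylglycerol-forming acyltransferase in the tables, was not called at +0.22. LRO1 and LCB1/2 passed in 3 and 1 of the 6 fits with a library left out: LRO1 without M_24, M_108 or M_120, and LCB1/2 without M_108.

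PAS_chr1-1_0108 and PAS_chr2-1_0249, which the study's tables list by identifier only, were also called lower. The former had 472, 623 and 680 FPKM early and 321, 273 and 280 FPKM late, a difference of −1.01 (adjusted p = 0.014), and it failed only without M_36 among the leave-one-out fits, at 0.063. The latter, annotated as a possible second dienoyl-CoA reductase, had 331, 416 and 453 FPKM early and 255, 242 and 166 FPKM late, a difference of −0.87 (adjusted p = 0.036). It passed only without M_24 or without M_108 when a library was left out. PAS_FragB_0022, annotated as a dienoyl-CoA isomerase, lay at −0.37 and overlapped between the groups (adjusted p = 0.13), and PXMP4, a peroxisomal membrane protein, lay at −0.28 (adjusted p = 0.11).

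The highest transcripts of the methanol pathway rose moderately on top of an already large level. AOX1 (PAS_chr4_0821), alcohol oxidase 1, had 19738, 20338 and 20797 FPKM early and 25217, 27928 and 33180 FPKM late, or 20291 ± 531 against 28775 ± 4049 FPKM (SD, n = 3 each). The groups did not overlap, and the late libraries were spread far more widely, with M_120 highest. The difference was 0.49 (standard error 0.11, 95% interval 0.24 to 0.75), a 1.41-fold rise with an adjusted p of 0.043. FDH (PAS_chr3_0932), the formate dehydrogenase, had 15396, 17280 and 17044 FPKM early and 21822, 23565 and 28257 FPKM late, a 1.47-fold rise (difference 0.56, adjusted p = 0.034). PMP20 (PAS_chr1-4_0547), a peroxisomal peroxiredoxin that removes peroxides, had 13675, 15397 and 16199 FPKM early and 21129, 21492 and 24761 FPKM late, a 1.49-fold rise (difference 0.57, adjusted p = 0.025). These 3 genes had the largest mean FPKM over the 6 libraries. Together they took 5.02 to 5.60% of all FPKM early and 6.57 to 7.58% late. The other two of the 5 largest genes have no name in the tables used and were not called.

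These calls were close to the threshold. AOX1 missed it in every fit with 1 library left out, with adjusted p-values of 0.060 to 0.14. FDH passed only without M_108, and PMP20 only without M_48 or without M_108. AOX1 was at 24093 FPKM in M_12, midway between the group means, and with M_12 added to the early group its difference was 0.43 and its adjusted p 0.13. At equal totals its difference was 0.37 (adjusted p = 0.041), where the median of all genes was −0.12.

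**Figure D2:**
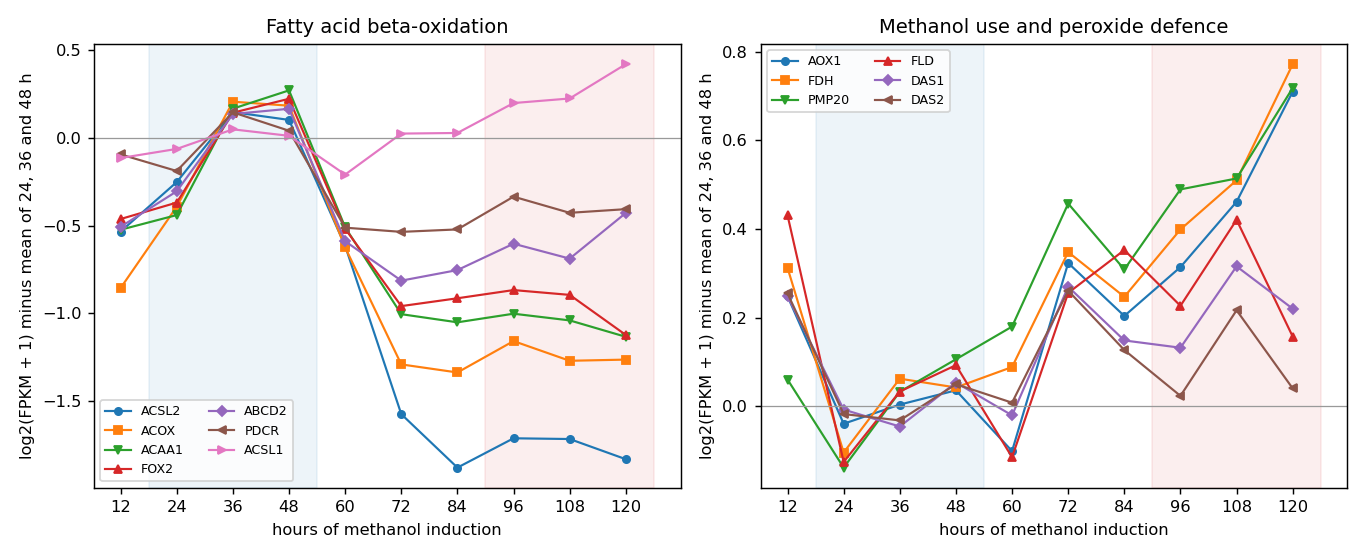
Level of 7 beta-oxidation genes (left) and 6 genes of methanol use and peroxide defence (right) over 12 to 120 h of methanol induction, as log2(FPKM + 1) minus the mean of the early libraries; each point is 1 library, and the blue and red bands mark the early and late groups. ACSL2 falls to about −1.75 by the late band while ACSL1 lies above 0 from 72 h on, and AOX1, FDH and PMP20 are highest at 120 h.

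The other enzymes around methanol did not pass the test. In the list of methanol oxidation and dissimilation limma called 2 of 5 genes higher and 0 lower (3 and 0 at an unadjusted p under 0.05), with a median of 0.27. Catalase (CAT), which also breaks down peroxide in the peroxisome, had 6548 to 7719 FPKM early and 7469 to 8209 FPKM late (0.16, adjusted p = 0.31). FLD, the formaldehyde dehydrogenase, had 5748 to 6688 FPKM early and 6993 to 8394 FPKM late (0.27, adjusted p = 0.14), without overlap. FGH, the formylglutathione hydrolase between FLD and FDH, lay at 0.01 (adjusted p = 0.94). Of the 7 assimilation genes limma called 0, with 2 higher and 0 lower at an unadjusted p under 0.05. Their median was 0.09, which became −0.036 at equal totals (all genes −0.12). The dihydroxyacetone synthase DAS1 lay at 0.22 (adjusted p = 0.14), its homologue DAS2 at 0.09, the dihydroxyacetone kinase DAK at −0.0037 and the bisphosphatase FBPI at 0.50 (adjusted p = 0.076). DAS1 and DAS2 are close copies whose reads may have been split in counting, as may those of AOX1 and its own close copy. FBPI had 1042 to 1444 FPKM early and 1512 to 1890 FPKM late, and it was called only without M_24, whose value was the highest of the early group.

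Few genes of central carbon metabolism were called. Of the 8 glycolysis genes limma called 0, with 1 higher and 0 lower at an unadjusted p under 0.05. Their median was 0.11, which became −0.014 at equal totals (all genes −0.12). The largest value was that of TPM, the phosphoglycerate mutase, at 0.49 (adjusted p = 0.069), with 48.5 to 64.2 FPKM early and 70.5 to 93.1 FPKM late, and it passed only without M_108. GPD, glyceraldehyde-3-phosphate dehydrogenase, lay at 0.20 and PK, pyruvate kinase, at 0.00. The 11 genes that supply and run the TCA cycle, pyruvate dehydrogenase included, had a median of −0.21, and 10 lay below 0, but 1 was called. At an unadjusted p under 0.05 there were 4 lower and 0 higher, and in 6 of the 11 every late library lay below every early one, against 16.9% of all genes. The call was the PDE1 gene of the E1 beta subunit (PAS_chr1-4_0593), with 297, 269 and 282 FPKM early and 208, 204 and 154 FPKM late. It fell 1.51-fold (difference −0.59, adjusted p = 0.036) and passed only without M_108 or M_120 when a library was left out. The PDE1 gene of the E1 alpha subunit (PAS_chr2-2_0294) lay at −0.31 (adjusted p = 0.078), and the succinyl-CoA ligase subunits SCS1 and SCS2 at −0.41 and −0.35 (adjusted p = 0.059 and 0.058), all with late libraries below every early one. At equal totals the median was −0.34 (all genes −0.12) and 4 of these 11 genes were called lower, where 7.22% of all genes were.

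The peroxins are the proteins that form peroxisomes and bring enzymes into them. Limma called 0 of 12, with 1 higher and 0 lower at an unadjusted p under 0.05. Their median of 0.11 became −0.021 at equal totals (all genes −0.12). PEX11, which drives peroxisome division, came nearest, with 2544, 2864 and 3209 FPKM early and 3555, 3839 and 3990 FPKM late (0.41, adjusted p = 0.061). Of the 4 regulators of the AOX1 promoter 0 were called by limma, and 0 had an unadjusted p under 0.05. Mxr1 had 101 to 114 FPKM early and 95.5 to 117 FPKM late, a difference of −0.06 with a 95% interval from −0.28 to 0.17. Prm1 lay at 0.01 with an interval from −0.13 to 0.15, Mit1 at 0.21 with one from −0.16 to 0.59, and C4qzn3 at 0.13 with one from −0.18 to 0.43. For Mit1 and C4qzn3, 1 late library stood out. Mit1 had 795 to 937 FPKM early and 861, 1297 and 881 FPKM late. C4qzn3 had 1037.5 to 1161 FPKM early and 1145, 1043 and 1464 FPKM late, with M_120 highest. Levels of all 4 overlapped between the groups.

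Of the 13 genes of the MAPK pathway limma called 0, with 1 higher and 3 lower at an unadjusted p under 0.05. Their median was −0.13, or −0.26 at equal totals (all genes −0.12). Slt2, the kinase of the cell wall integrity pathway, had 93.9 to 120 FPKM early and 70.1 to 86.0 FPKM late (−0.39, adjusted p = 0.074). Ste3, a pheromone receptor, was the one member with a rise of that size, with 16.0, 22.3 and 18.8 FPKM early and 25.01, 27.6 and 28.1 FPKM late. Its difference was 0.49 and its adjusted p of 0.0503 fell just short of the threshold. Tec1 and Ste12, transcription factors of filamentous growth, lay at −0.34 and −0.29 without overlap and were not called.

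Genes of protein folding and degradation in the endoplasmic reticulum (UPR and ERAD) had 1 call among 20, with 6 higher and 0 lower at an unadjusted p under 0.05. Their median of 0.19 was 0.078 without M_120, 0.079 with M_12 added and 0.057 at equal totals (all genes −0.12). The gene called was Ubc7 (PAS_chr3_0924), a ubiquitin-conjugating enzyme of this degradation pathway, which was almost constant early at 59.9, 60.1 and 59.4 FPKM and had 75.9, 69.8 and 84.4 FPKM late (0.35, adjusted p = 0.045). It was called without M_108 and in none of the other 5 leave-one-out fits. HAC1, the transcription factor that drives the unfolded protein response, went from 333, 252 and 200 FPKM to 374, 356 and 423 FPKM, without overlap but with a wide early spread (0.58, adjusted p = 0.081). Without M_24 it was called, at an adjusted p of 0.024. The chaperone BiP had 717, 580 and 391 FPKM early and 595, 795 and 1004 FPKM late, so the groups overlapped (0.52, adjusted p = 0.22). Hsp70 had 3767, 6795 and 3690 FPKM early and 5420, 7449 and 13643 FPKM late, the largest difference of the list at 0.85, yet with a 95% interval from 0.03 to 1.67 before adjustment and an adjusted p of 0.17. Its value in M_120 was far above the other late libraries. Hsp90 showed the same order of libraries, with 1349 to 1961 FPKM early and 1638, 2315 and 3066 FPKM late (0.53, adjusted p = 0.18).

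The 25 autophagy genes had 1 call in each direction and a median of 0.18, which was 0.057 at equal totals (all genes −0.12). ATG22 (PAS_chr1-1_0353), a vacuolar membrane protein that in Saccharomyces cerevisiae releases amino acids from the vacuole, had 38.9, 42.6 and 44.7 FPKM early and 58.3, 51.0 and 53.8 FPKM late. Its difference was 0.36 (adjusted p = 0.042), and it passed only without M_108 among the leave-one-out fits. LCB1/2, given above, was the call in the other direction and is a sphingolipid gene by its description. ATG8, the ubiquitin-like protein of the autophagosome membrane, had 536, 656 and 723 FPKM early and 923, 743 and 1054 FPKM late (0.50, adjusted p = 0.089) and was called without M_108. ATG17, which organises the site of autophagosome formation, lay at 0.40 (adjusted p = 0.059). ATG1, the kinase at the head of the pathway, lay at 0.12 with overlapping groups. In all, 9 of the 25 had every late library above every early one and 2 had them all below, against 19.0% and 16.9% of all genes, and the same numbers, 9 and 2, passed an unadjusted p under 0.05.

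**Figure D3:**
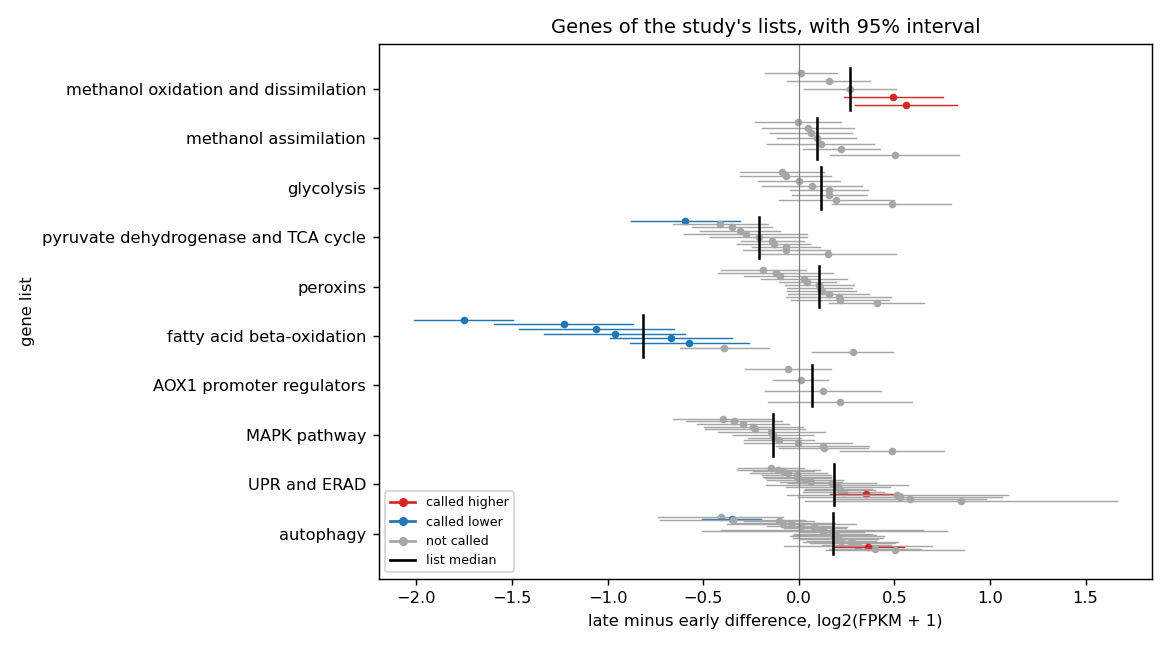
Late minus early difference in log2(FPKM + 1) of each gene in the 10 lists, with its 95% interval as a line; red is called higher, blue called lower, grey not called, and the black bar is the list median. Beta-oxidation is the list whose median, −0.81, lies farthest from 0.

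Over the 128 genes named in the study's supplementary tables, 5 were called higher and 12 lower, against 3.76% and 2.75% of all genes. The other 187 higher and 128 lower genes have no name in the sources used here. Among those with a mean of at least 10 FPKM, the largest rise was that of transcript number 25 of the unannotated set, on chromosome 3 from 1059449 to 1060888 (build not given). It had 95.02, 128 and 108 FPKM early and 341, 340 and 514 FPKM late, a 3.54-fold rise (difference 1.82, adjusted p = 0.0035). PAS_chr1-1_0378 came next, with 105, 210 and 198 FPKM early and 424, 417 and 926 FPKM late (1.74, adjusted p = 0.035). It was called in 1 of the 6 leave-one-out fits, the one without M_108, whereas the numbered transcript was called in all 6, though not with M_12 added to the early group (adjusted p = 0.067).

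The largest falls were far steeper than any named gene. PAS_chr4_0832 had 69.2, 116 and 164 FPKM early and 8.72, 7.77 and 7.19 FPKM late, a 12.5-fold fall (difference −3.64, adjusted p = 0.0011). PAS_chr1-3_0215 had 170, 220 and 269 FPKM early and 19.1, 17.0 and 17.0 FPKM late, an 11.6-fold fall (difference −3.54, adjusted p = 7.7e-05). Both fell between neighbouring samples: PAS_chr4_0832 had 381 FPKM in M_60 and 5.97 FPKM in M_72, and PAS_chr1-3_0215 had 513 and 14.2 FPKM. They had climbed through every library from M_24 to M_60 before that. Both were called in all 6 leave-one-out fits. They were not called with the spread of all 10 methanol libraries, in which M_60 and M_72 share a group (adjusted p = 0.097 and 0.076).

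The middle libraries were used to follow the called genes between the groups. Each was placed between the early mean (0) and the late mean (1) of each called gene. The median position in M_60 was 0.22 for the higher and 0.098 for the lower genes, and in M_72 it was 0.65 for both. It stood at 0.57 and 0.56 in M_84. In M_72, 138 of the 192 higher genes and 98 of the 140 lower genes were past the midpoint, against 56 and 27 in M_60. The calls favour small steps within the early and the late group, so only the 4 intervals from M_48 to M_96 can be set side by side. Among the higher genes, 72 had their largest step in the called direction between M_60 and M_72, against 39 from M_48 to M_60, 2 from M_72 to M_84 and 37 from M_84 to M_96. Among the lower genes these numbers were 59, 20, 1 and 28. The same shares over all genes tested are not given here, so these counts have no background. Across all genes tested, M_60 was less like M_48 and M_72 than these were like each other. Its correlation was 0.9828 with M_48 and 0.9842 with M_72, against 0.9911 between M_48 and M_72. With M_36 it was 0.9885, near the 0.9895 between M_36 and M_72. A step out of M_60 can therefore be a return from a passing state, and the steps do not date a late switch. As the late mean was set by M_96, M_108 and M_120 themselves, positions in those libraries near 1 are not a result.

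The fall of most beta-oxidation genes was spread over M_48 to M_72. ACOX, ACAA1, FOX2 and ABCD2 made their largest drop from M_48 to M_60, by 0.74 to 0.81 on the log2 scale. This interval held the largest drop of 20 of the 140 lower genes. In M_60 their positions were 0.51, 0.48, 0.54 and 1.03, so only ABCD2 was at the late level. From M_60 to M_72 they dropped by a further 0.67, 0.50, 0.44 and 0.22. ACSL2 made its own from M_60 to M_72, by 0.96 after 0.72. By M_72 the positions of these 5 genes were 0.90 to 1.42, so all had reached or nearly reached the late level. AOX1 instead dipped in M_60, to 18912 FPKM, and stood at 25378 FPKM in M_72. Ubc7 also rose between M_60 and M_72, from 60.9 to 80.3 FPKM. For the lower genes the first library was no extension of the early group: M_12 lay at a median position of 0.65, with 86 of the 140 past the midpoint. For the higher genes the median in M_12 was 0.12, near the early mean, with 50 of the 192 past the midpoint. Their quartiles there were wide, at −0.465 and 0.503.

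**Figure D4:**
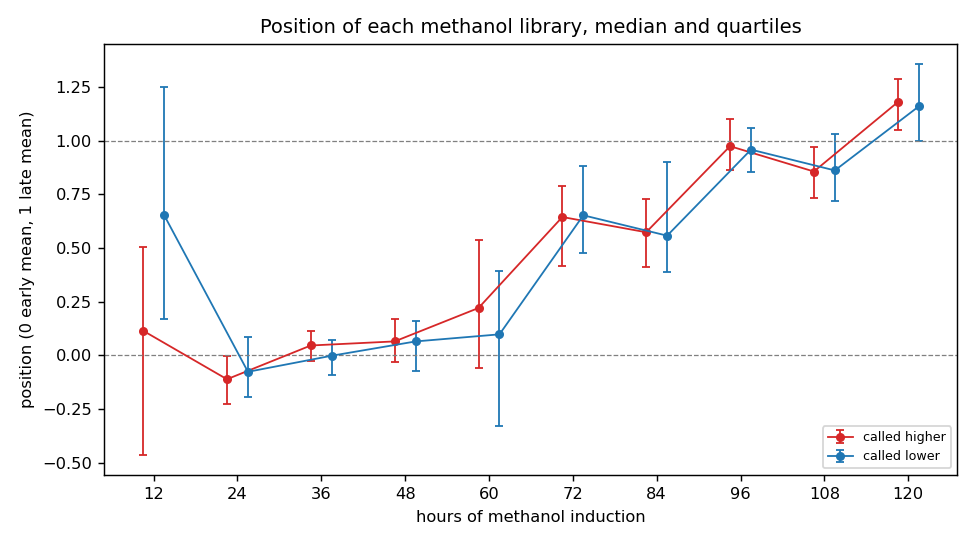
Position of each methanol library between the early mean (0) and the late mean (1) over hours of induction, as the median over the 192 genes called higher (red) and the 140 called lower (blue), with bars from the first to the third quartile. The medians lie near 0 up to 48 h, at 0.65 at 72 h and near 1 from 96 h, and at 12 h the lower genes lie at 0.65.

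Called genes differed in level and length. Of the 1275 genes with the largest mean FPKM (127 and above), 105 were called higher and 30 lower, while of the 1275 with the smallest (28.4 and below) 13 were called higher and 45 lower. The median difference was 0.077 in the former and −0.088 in the latter. By length, the 1260 shortest annotated genes (up to 771 bases) had 64 higher and 24 lower calls, and the 1255 longest (from 1809 bases) 23 and 48. The part of level and length in the calls was not tested further. Chromosomes 1 to 4 had 3.24 to 4.01% of their genes called higher and 2.35 to 3.16% lower. Among the direct neighbours of higher genes in the reference gene order 40 of 363 were also called higher (11.02%, against 3.76% of all genes), and among those of lower genes 20 of 280 were lower (7.14%, against 2.75%), which makes 20 and 10 adjacent pairs. Neighbours that overlap may share reads, since strand use in counting is not stated. Of the 38 tested transcripts of the unannotated set, limma called 5 higher (13.2%, against 3.64% of the annotated genes) and 0 lower, with 9 and 1 at an unadjusted p under 0.05. The other 4 beside transcript 25 had differences of 0.50 to 0.85. The 30 tested entries with identifiers of neither kind had a like share, with 4 called higher by limma (13.3%) and 0 lower. At an unadjusted p under 0.05 these entries had 10 higher and 1 lower.

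The number of calls rested on single libraries. Without M_24, M_36 or M_48, limma called 116, 21 and 108 genes higher and 131, 17 and 70 lower. Without M_96 or M_120 it called 27 and 63 higher and 25 and 45 lower, while without M_108 the counts rose to 275 and 264. Of the 332 called genes, 16 higher and 17 lower ones were called in all 6 of these fits, among them ACSL2, ACOX and GUT1 as the named ones.

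**Figure D5:**
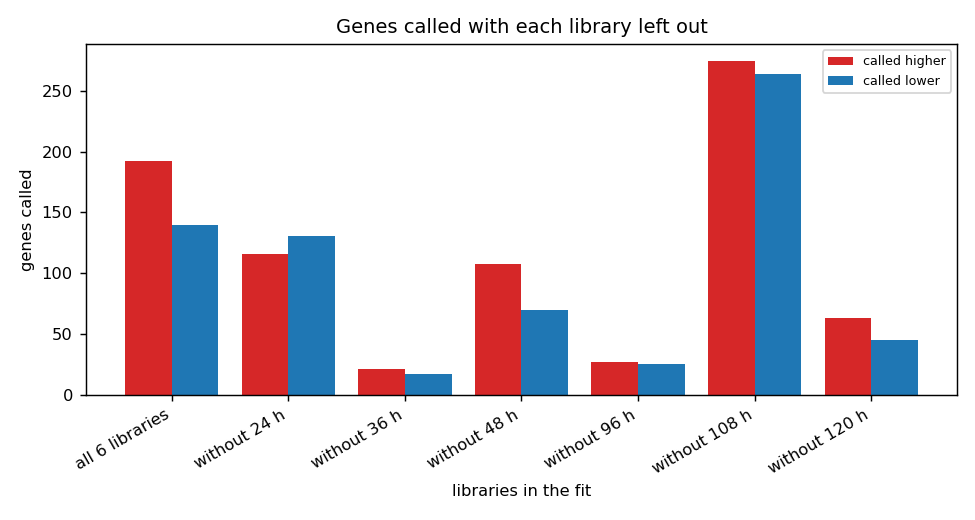
Number of genes called higher (red) and lower (blue) at an adjusted p of at most 0.05 with all 6 libraries and with each library left out in turn. The counts run from 21 and 17 without 36 h to 275 and 264 without 108 h.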

How the data were processed

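FPKM values of 5439 genes and transcripts were deposited, made by the authors from alignments with HISAT2 2.0.5; the build and counting tool are not given in the sources used. Since no counts were used, limma 3.58.1 (R 4.3.3, empirical Bayes with trend) was fitted to log2(FPKM + 1) of the 6 libraries, for 5100 genes that averaged 1 FPKM or more over the 13 libraries, with Benjamini-Hochberg adjustment over all of them. The fit was also run on simulated data with libraries drawn independently, which cannot check its error rate for serial samples of 1 culture. Names and lists came from the study's supplementary tables (128 genes, all tested); lists defined by words in product texts were not used, as the reference table (ASM2700v1) holds locus tags and positions only. Its gene lengths gave the depth: 96.6 to 100.0% of low values were whole within 0.01 fragments. The text names the called genes of the tables, except 1 that is not reported here, AOX1 and its regulators, HAC1, BiP and ATG8, the genes with the largest FPKM, and at most 2 unnamed genes in each direction; other table genes were added after their values were seen. The comparison, members and lists were chosen with earlier results of these data known. Alternatives changed the pseudocount (0.1, 5), filter, scaling, libraries and limma settings. Columns of other analyses by the authors were not used. Tables and plots used Python 3.11.15, numpy 2.4.6, pandas 2.3.3 and matplotlib 3.10.9.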

Additional observations from a re-analysis of the deposited data

How the results depend on the processing

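Against 192 genes called higher and 140 lower, leaving out 1 library gave 21 to 275 higher and 17 to 264 lower. Adding M_12 to the early group gave 41 and 23, the fit over hours 335 and 255, equal totals 110 and 368, equal totals without the 20 largest genes 126 higher, and a required difference of at least 1 gave 14 and 10. Groups without overlap numbered 598 above and 506 below with M_12 added, 398 and 1743 at equal totals, 559 and 1362 without the 20 largest genes, and 545 and 453 with M_72 and M_84 added to the late group, an alternative chosen after seeing the data. The median of methanol oxidation and dissimilation was 0.16 with M_12 added and 0.14 at equal totals. Equal totals multiplied all genes of a library by a common factor, 1.015 to 1.052 in the early libraries and 0.893 to 0.978 in the late ones. That lowered late values relative to early ones, and the median difference of all genes became −0.12. The cause of the other shifts was not tested. Leaving out or adding a library also changes the number of samples. Of 306 values for the 17 called genes of the tables, 215 kept the call and 91 lost it, of which 33 outside the leave-one-out fits, and none reversed. No paired analysis was possible because serial samples of 1 culture hold no replicate units to pair. One culture, 1 library a time point and FPKM without counts limit all results.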
